A study of Mus musculus with 6 samples.

Results

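The type I interferon-stimulated genes are a set of 37 named genes that cells switch on when type I interferon signals through its receptor, and they were followed here in ovarian tumours of mice given AZD7507, an inhibitor of the macrophage growth factor receptor CSF1R, or vehicle. The set was given as a list of symbols, and each of the 37 matched 1 row of the 16344 genes in the deposited table. None of the 37 passed the test between the groups (limma, Benjamini-Hochberg adjusted p under 0.05), although 27 of them had a higher mean with AZD7507. The median difference over the 37 genes was 0.14 on the log2 scale, against 0.025 over all genes. Without 1 vehicle tumour, Vehicle 2, 19 of the 37 had a higher mean and the median difference was 0.024.

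Type I interferons bind the receptor IFNAR1 and IFNAR2, which activates the kinases JAK1 and TYK2 and through them the transcription factor ISGF3, which contains STAT2 and IRF9. ISGF3 binds the interferon-stimulated response element in the promoters of its target genes. The products block viral replication, sense foreign or misplaced nucleic acid, attract lymphocytes and feed back on the pathway. In tumours the same programme can follow DNA damage and is used as a readout of interferon signalling in cancer cells and in the leukocytes around them.

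The tumours came from the 60577 mouse line of high-grade serous ovarian cancer, a single cell line placed in the abdominal cavity of syngeneic mice and given 21 days to grow. All animals had 3 weekly cycles of carboplatin, a DNA-damaging platinum drug. The groups then differed in the gavage, which was AZD7507 for 84 days in one and vehicle in the other, and each group gave 3 tumours at the humane endpoint. The sources used here give no strain, age or day of collection, and no animal is named for a tumour, so the spread measured is that between tumours. The design asks how blocking CSF1R changes tumours that had been treated with carboplatin.

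Values are log2 RPKM, a read density that allows for gene length and sequencing depth, as normalized by the authors, and the depth behind them is unknown. Over all genes, 3 were called higher and 55 lower with AZD7507. Csf1r, which encodes the target of the drug, was at 4.85, 5.47 and 4.59 with vehicle and at 2.57, 2.78 and 1.71 with AZD7507, and differed by -2.62 (SE 0.32, limma adjusted p 0.035). That call was lost without any 1 of the 6 libraries (limma adjusted p 0.067 to 0.15). All 12 macrophage markers were lower with AZD7507, and their summed level was 433 to 703 RPKM with vehicle and 88.7 to 212 RPKM with AZD7507. In bulk tumour RNA, fewer cells of a type and less RNA per cell cannot be told apart. Of the defining markers of serous tumour cells, Wt1 lay between 6.13 and 6.72, while Pax8 was near the bottom of the table, between -3.89 and -2.09. All 11 epithelial tumour markers had a higher mean with AZD7507, though none was called. Transcripts of pancreatic acinar cells had a mean log2 level of 9.04 in Vehicle 2 and 9.19 in AZD7507 2, against -3.58 to -0.28 in the other libraries, so results are also given without these.

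The interferon-stimulated response element is the sequence through which ISGF3 reaches these genes, and 4 promoters are shown because they carry its core in members with differences of either sign. Promoters were matched in the RefSeq table (GRCm38.p6) for 29 of the 37 genes; Dhx58, Mx1, Oas2, Parp14, Parp9, Rtp4, Usp18 and Zbp1 were not matched. Each stretch is the 250 bases before the start site, read 5′ to 3′ on the strand of the gene. Capitals mark the response element core (GAAA, any 2 bases, GAAA, or its reverse complement TTTC, any 2 bases, TTTC) and the gamma-activated site core (TTC, any 3 bases, GAA), an element of interferon gamma responses. Isg15 lies on the minus strand (chr4:156200819-156201068) and has 3 overlapping copies of the response element core, the first starting 78 bases before the start site. Ifit1 is on the plus strand (chr19:34640639-34640888) and has 2 copies, from 104 bases before the start. Oas1a is on the minus strand (chr5:120907526-120907775), with 2 overlapping copies beginning 20 bases before the start and a gamma-activated site core further out. Bst2 is on the minus strand (chr8:71537473-71537722), where 2 response element cores begin 130 bases before the start and overlap a gamma-activated site core.
Isg15: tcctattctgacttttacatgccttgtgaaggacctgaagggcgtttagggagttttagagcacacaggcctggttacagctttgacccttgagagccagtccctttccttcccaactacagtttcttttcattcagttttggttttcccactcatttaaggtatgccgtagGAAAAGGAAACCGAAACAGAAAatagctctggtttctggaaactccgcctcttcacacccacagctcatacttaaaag
Ifit1: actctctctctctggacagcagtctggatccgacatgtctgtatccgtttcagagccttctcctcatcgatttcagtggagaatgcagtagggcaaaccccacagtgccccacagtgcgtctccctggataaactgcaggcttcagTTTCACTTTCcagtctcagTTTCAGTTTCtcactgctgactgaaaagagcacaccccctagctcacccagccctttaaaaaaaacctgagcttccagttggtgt
Oas1a: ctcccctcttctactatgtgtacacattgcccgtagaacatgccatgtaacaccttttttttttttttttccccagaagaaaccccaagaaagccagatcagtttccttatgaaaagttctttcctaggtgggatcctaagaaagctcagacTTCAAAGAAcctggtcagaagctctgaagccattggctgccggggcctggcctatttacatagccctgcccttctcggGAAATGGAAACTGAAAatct
Bst2: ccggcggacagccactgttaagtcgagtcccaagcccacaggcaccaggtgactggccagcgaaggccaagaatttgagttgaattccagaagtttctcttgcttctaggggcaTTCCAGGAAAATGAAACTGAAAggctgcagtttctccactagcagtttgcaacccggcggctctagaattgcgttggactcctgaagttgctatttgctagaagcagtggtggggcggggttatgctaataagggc

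Within the 300-base promoter windows, which also take in the first 50 transcribed bases, the response element core was present in 12 of 29 matched members (41.4%), against 3.99% of the 27025 genes in the promoter table and 3.44% of its 32851 promoters. The gamma-activated site core was present in 6 of the 29 (20.7%) against 9.55% of all genes. Among the 12 members with the response element core, 9 had a higher mean with AZD7507 and the median difference was 0.26. Among the 17 matched members without it, 14 had a higher mean and the median difference was 0.12. The 12 were Isg15, Ifit1, Ifit3, Oas1a, Oas3, Rsad2, Bst2, Stat2, Cxcl10, Ifih1, Ddx58 and Eif2ak2, and in Ifih1, Ddx58 and Eif2ak2 the core lay within the first 50 transcribed bases.

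Several members sit side by side in the genome. On GRCm38, Ifit2, Ifit3 and Ifit1 lie on chromosome 19 between 34550694 and 34650009, and Oas2, Oas3 and Oas1a on chromosome 5 between 120730333 and 120907521. Oasl2 and Oasl1 form a second group on chromosome 5, between 114896936 and 114937915, as do Cxcl9 and Cxcl10 between 92321347 and 92348889. Rsad2 and Cmpk2 are neighbours on opposite strands of chromosome 12, between 26442746 and 26479837. Parp14, Dtx3l and Parp9 lie on chromosome 16 between 35832874 and 35972605. All 37 are annotated as protein-coding genes.

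Levels differed widely between the members. The highest mean over the 6 libraries was 4.30 log2 RPKM for Trim25, an E3 ligase that acts on RIG-I, followed by 4.23 for Dtx3l, 4.17 for Oasl2 and 4.06 for Bst2. The libraries of these 4 genes overlapped, so their order was not larger than the spread between libraries. At the other end, Oas3 was at -2.41, Ifi44 at -1.51 and Mx1 at -1.17, and 10 of the 37 genes had means below 0, that is under 1 RPKM. The median level over the members was 1.62, against 2.29 over all genes. The plot of levels in each tumour shows that for most members the orange and blue points share a range.

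**Figure D1:**
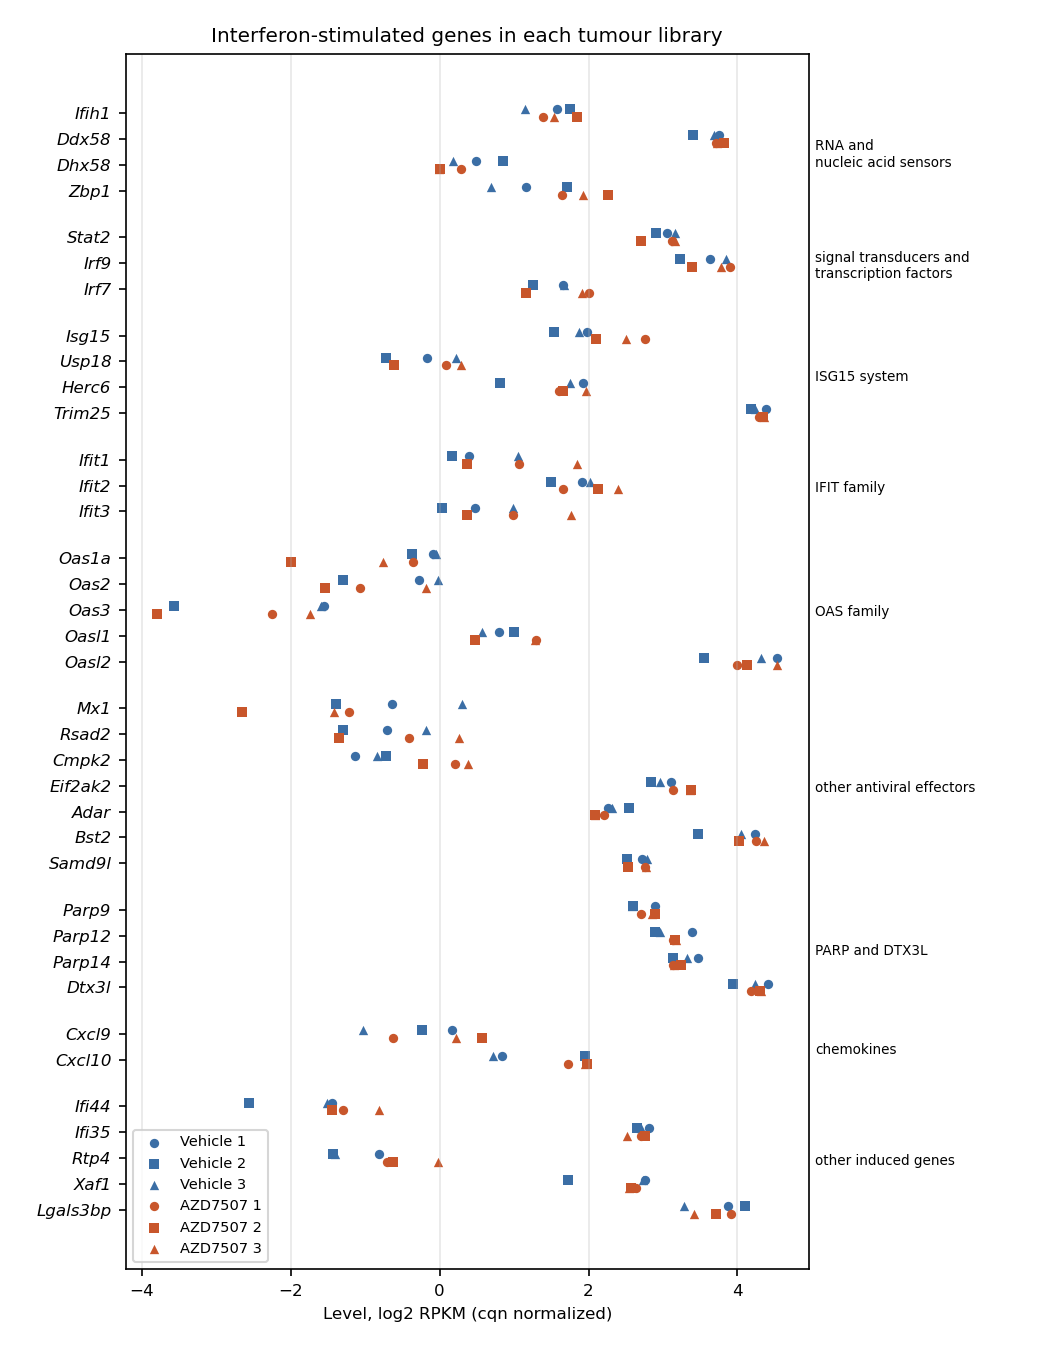
Level of each of the 37 interferon-stimulated genes (vertical axis, grouped by role) in each tumour library, in log2 RPKM as deposited (horizontal axis). Blue symbols are the 3 vehicle libraries and orange symbols the 3 AZD7507 libraries; Isg15, Cmpk2, Eif2ak2, Rtp4 and Ifi44 have all orange symbols to the right of all blue ones, and Adar has them to the left.

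Upstream of the set, the receptor genes did not pass the test. Ifnar1 was at 4.83 ± 0.19 with vehicle and 4.58 ± 0.13 with AZD7507 (mean ± SD, n = 3), a difference of -0.25 (SE 0.13). Ifnar2 was at 3.09 ± 0.18 and 3.13 ± 0.12, a difference of 0.037 (SE 0.13). The limma adjusted p was 0.67 and 0.96, and the 8 interferon genes in the list of ligands were not analysed here. Ptpn6, a phosphatase gene of blood cells, differed by -0.72 (SE 0.28, limma adjusted p 0.53). Of the 12 signalling genes measured, 0 were called, and 4 had a higher mean with AZD7507, where 54.5% of all genes had one.

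Among the members that carry the signal, STAT2 and IRF9 are subunits of ISGF3, and IRF7 drives further interferon production. Irf7 was at 1.66, 1.25 and 1.67 with vehicle and at 2.003, 1.16 and 1.92 with AZD7507. Irf9 was at 3.63, 3.23 and 3.85 with vehicle and at 3.89, 3.38 and 3.78 with AZD7507. For both genes the lowest library of each group was replicate 2, and the groups overlapped. The differences were 0.17 (SE 0.25) for Irf7, 0.12 (SE 0.20) for Irf9 and -0.036 (SE 0.15) for Stat2, with limma adjusted p of 0.90, 0.91 and 0.97.

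Sensors of nucleic acid are both inducers and targets of the pathway. Zbp1, which encodes a sensor of Z-form nucleic acid that can start necroptosis, was at 1.16, 1.71 and 0.69 with vehicle and at 1.64, 2.26 and 1.93 with AZD7507. Vehicle 2 lay above the lowest AZD7507 library, and the difference of 0.76 (SE 0.28, 95% interval 0.098 to 1.42) did not pass (limma adjusted p 0.50). Dhx58, which encodes LGP2, a regulator of the RIG-I family, was at 0.49, 0.85 and 0.18 with vehicle and at 0.29, 0.0068 and -0.013 with AZD7507. Its difference of -0.41 (SE 0.24, limma adjusted p 0.70) had the opposite sign to those of Ddx58 and Ifih1. Ddx58, the gene of RIG-I, and Ifih1, the gene of MDA5, both sensors of viral RNA, differed by 0.14 (95% interval -0.15 to 0.42) and 0.096 (95% interval -0.38 to 0.58).

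Of the 11 measured genes of interferon induction, upstream of the set, 1 was called lower, where 0.337% of all genes were. Tlr9, the receptor for unmethylated DNA, fell from 1.62 ± 0.18 to -1.05 ± 0.49 (difference -2.67, SE 0.28, limma adjusted p 0.021). Tlr7, the receptor for single-stranded RNA, was at 1.55 ± 0.79 and 0.27 ± 0.35 and did not pass (difference -1.28, SE 0.40, limma adjusted p 0.37). The call of Tlr9 was lost without any 1 of the libraries (limma adjusted p 0.052 to 0.13). The macrophage markers moved the same way as Tlr9 and Tlr7, and their part in these differences was not tested.

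The ISG15 system tags proteins with ISG15, a ubiquitin-like protein. Isg15 was at 1.98, 1.53 and 1.87 with vehicle and at 2.76, 2.10 and 2.50 with AZD7507. All 3 AZD7507 libraries were above all 3 vehicle libraries. The difference was 0.66 (SE 0.20, 95% interval 0.18 to 1.14), 1.58-fold higher, and did not pass over all genes (limma adjusted p 0.37). Herc6, the mouse ligase that attaches ISG15, was at 1.93, 0.81 and 1.75 with vehicle and at 1.60, 1.66 and 1.96 with AZD7507. Apart from the low value in Vehicle 2 the Herc6 libraries of the groups overlapped, and the difference of 0.24 (SE 0.30, limma adjusted p 0.87) became -0.10 without that library. Usp18, which encodes the protease that removes ISG15 and restrains the receptor, differed by 0.14 (SE 0.35), and Trim25 by 0.066 (SE 0.10). Vehicle 2 was the lowest library for all 4 genes of the system.

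The IFIT proteins bind viral RNA and stop its translation. Ifit1 was at 0.40, 0.17 and 1.06 with vehicle and at 1.06, 0.37 and 1.84 with AZD7507. Ifit3 was at 0.48, 0.032 and 0.99 with vehicle and at 0.98, 0.36 and 1.76 with AZD7507. In each group the order of the libraries was the same for both genes, AZD7507 3 was the highest of all and Vehicle 2 the lowest. The groups overlapped, and the differences of 0.55 (SE 0.40) for Ifit1, 0.54 (SE 0.39) for Ifit3 and 0.25 (SE 0.23) for Ifit2 did not pass (limma adjusted p 0.78, 0.78 and 0.83). Ifit3 shares 51.2% of the 50-base windows of its longest transcript with other genes, chiefly Ifit3b, so reads may have been split between these copies. Ifit3b itself differed by 0.39 (SE 0.35).

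The OAS enzymes make a messenger that activates RNase L, which degrades RNA. Oas1a was at -0.089, -0.37 and -0.045 with vehicle and at -0.36, -1.99 and -0.76 with AZD7507. Its groups overlapped by a small margin, since AZD7507 1 lay just above Vehicle 2, and the difference was -0.87 (SE 0.43, limma adjusted p 0.63). Oas2 was at -0.27, -1.30 and -0.015 with vehicle and at -1.06, -1.54 and -0.18 with AZD7507, and differed by -0.40 (SE 0.47, limma adjusted p 0.87). Oas3 differed by -0.36 (SE 0.74) and was the most variable member, with SDs of 1.15 and 1.07. The 3 neighbouring genes on chromosome 5 thus all had a lower mean with AZD7507, and AZD7507 2 was their lowest library. Without AZD7507 2 the Oas3 difference turned to 0.24. Oasl1 and Oasl2, which encode OAS-like proteins of the other cluster, differed by 0.23 (SE 0.27) and 0.082 (SE 0.27). Oas1a shares 57.6% of its windows with other genes, chiefly Oas1g.

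Among the remaining antiviral effectors, Cmpk2 had the smallest p of the 37. Cmpk2, a mitochondrial nucleotide kinase gene, was at -1.13, -0.72 and -0.84 with vehicle and at 0.20, -0.22 and 0.39 with AZD7507. All AZD7507 libraries were above all vehicle libraries, and the difference of 1.02 (SE 0.26, 95% interval 0.40 to 1.64), 2.03-fold higher, did not pass over all genes (limma adjusted p 0.25). Its neighbour Rsad2, the gene of viperin, was at -0.70, -1.29 and -0.18 with vehicle and at -0.41, -1.35 and 0.26 with AZD7507, so that replicate 2 was lowest in either group and the groups overlapped. Eif2ak2, which encodes PKR, the kinase that halts translation on double-stranded RNA, was at 3.11, 2.84 and 2.96 with vehicle and at 3.13, 3.37 and 3.37 with AZD7507. The groups did not overlap, though AZD7507 1 lay just above Vehicle 1, and the difference was 0.32 (SE 0.12, limma adjusted p 0.50).

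Effectors with the opposite sign were Mx1 and Adar, singled out after their values were seen. Mx1, a dynamin-like GTPase gene that is disrupted in many inbred mouse strains, was at -0.64, -1.39 and 0.31 with vehicle and at -1.22, -2.65 and -1.42 with AZD7507, and differed by -1.19 (SE 0.55, limma adjusted p 0.61). AZD7507 1 lay above Vehicle 2, and all but one of the values were under 1 RPKM. Adar, which encodes an enzyme that edits adenosine in double-stranded RNA, was at 2.26, 2.55 and 2.31 with vehicle and at 2.20, 2.08 and 2.09 with AZD7507. It was the 1 member with all AZD7507 libraries below all vehicle libraries, at a difference of -0.25 (SE 0.13, limma adjusted p 0.64). Bst2, the gene of tetherin, and Samd9l, a growth-restricting antiviral gene, differed by 0.30 (SE 0.20) and 0.018 (SE 0.13).

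The PARP enzymes with DTX3L attach ADP-ribose and ubiquitin to proteins, and all 4 members had intervals that span 0. Parp9 was at 2.89, 2.60 and 2.58 with vehicle and at 2.70, 2.89 and 2.85 with AZD7507. Parp14 was at 3.46, 3.14 and 3.32 with vehicle and at 3.14, 3.24 and 3.14 with AZD7507. Their differences were 0.12 (95% interval -0.17 to 0.42) and -0.14 (95% interval -0.41 to 0.14), with limma adjusted p of 0.85 and 0.81. Parp12 and Dtx3l differed by 0.077 (95% interval -0.26 to 0.42) and 0.073 (95% interval -0.25 to 0.40). The gene spans of Parp9 and Dtx3l, introns included, overlap by 682 bases on opposite strands. The sources used here do not give the strand setting of the counting, and overlap between exons was not examined. How reads there were counted is therefore unknown. The same holds for Adar and Chrnb2 (7252 bases), Cxcl10 and Art3 (2252 bases), Dhx58 and Dhx58os (2637 bases) and Rtp4 and Masp1 (525 bases), and for the non-coding genes opposite Usp18 (Gm44148, 15715 bases), Parp9 (Gm15564, 5854 bases) and Oas2 (Gm43068, 1273 bases). Herc6 shares 23.8% of its 50-base windows with other genes, chiefly Gm45193, and Rtp4 13.6%, chiefly Gm45338.

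CXCL9 and CXCL10 draw in T cells that bear CXCR3, and both genes also respond to interferon gamma. Cxcl10 was at 0.84, 1.96 and 0.72 with vehicle and at 1.73, 1.98 and 1.95 with AZD7507. Vehicle 2 was as high as the AZD7507 tumours, and the difference of 0.71 (SE 0.32, 95% interval -0.041 to 1.47) did not pass (limma adjusted p 0.59). Cxcl9 was at 0.17, -0.23 and -1.03 with vehicle and at -0.62, 0.57 and 0.21 with AZD7507, and differed by 0.42 (SE 0.42, limma adjusted p 0.85). T and NK cell markers, of which 3 of 12 were measured, summed to 3.46 to 5.77 RPKM with vehicle and 2.21 to 5.62 RPKM with AZD7507. By gene the differences were 0.028 for Trac, -0.076 for Cd3e and -1.36 for Cd4, and none was called.

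The last members are induced genes of varied function. Rtp4, a receptor chaperone gene that restrains interferon responses, was at -0.81, -1.43 and -1.40 with vehicle and at -0.70, -0.62 and -0.023 with AZD7507. Ifi44 was at -1.45, -2.56 and -1.51 with vehicle and at -1.30, -1.44 and -0.82 with AZD7507. In both genes all AZD7507 libraries were above all vehicle libraries, but the levels were under 1 RPKM throughout, and the differences of 0.76 (SE 0.32) and 0.65 (SE 0.40) did not pass (limma adjusted p 0.55 and 0.73). Xaf1, a pro-apoptotic gene, differed by 0.18 (SE 0.27), while Ifi35 and Lgals3bp, a secreted glycoprotein gene, differed by -0.069 (SE 0.11) and -0.068 (SE 0.23). The plot of differences with their intervals sets these members beside the others.

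**Figure D2:**
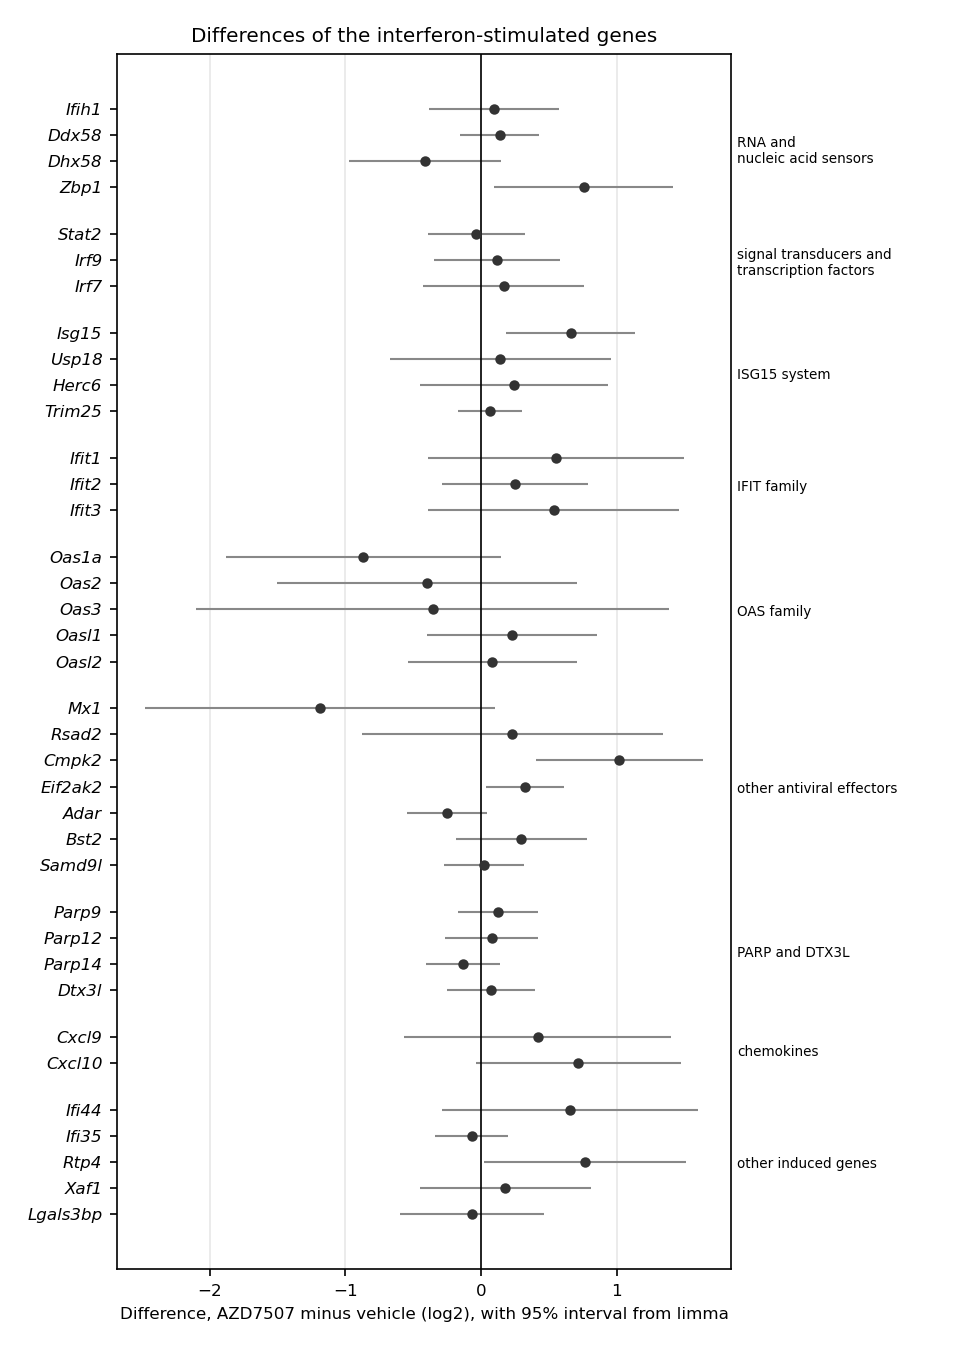
Difference between the AZD7507 and vehicle means of each of the 37 interferon-stimulated genes (log2 scale, horizontal axis), grouped by role on the vertical axis. Points are limma estimates over 3 against 3 libraries and bars are 95% intervals without correction for the number of genes; the intervals of Zbp1, Isg15, Cmpk2, Eif2ak2 and Rtp4 lie above 0, and none lies below 0.

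Counted over the set, 0 of 37 members were called higher or lower, where 0.0184% of all genes were called higher and 0.337% lower. At an unadjusted limma p under 0.05 there were 5 higher and 0 lower members, where 3.31% of all genes were higher and 5.49% lower. A higher mean with AZD7507 was found in 27 of 37 members (73.0%), where 54.5% of all genes had one. All AZD7507 libraries were above all vehicle libraries in 5 members, where 7.34% of all genes were so placed, and below in 1 member, where 8.02% were. A difference larger than 1 on the log2 scale was found in Cmpk2 alone among the higher members, where 0.52% of all genes had one, and in Mx1 alone among the lower, where 2.24% had one. By role, a higher mean was found in 4 of 4 genes of the ISG15 system, 3 of 3 IFIT genes, both chemokine genes, 3 of 4 sensors, 3 of 4 PARP and DTX3L genes, 2 of 3 transducers, 5 of 7 other effectors, 3 of 5 other induced genes and 2 of 5 OAS genes.

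The count of members with a higher mean depended on single libraries. Vehicle 2 was the lowest library for 18 of the 37 members, where it was the lowest for 26.3% of all genes, and AZD7507 3 was the highest for 11, where it was the highest for 16.8%. The mean deviation of the 37 genes from their 6-library means was -0.29 in Vehicle 2, 0.068 in Vehicle 1 and 0.012 in Vehicle 3. With AZD7507 it was 0.087, -0.15 and 0.27 in replicates 1 to 3, so that AZD7507 2 lay below 2 of the 3 vehicle libraries. Without Vehicle 2, 19 of 37 members had a higher mean with AZD7507, where 51.8% of all genes had one, and the median difference was 0.024. Without AZD7507 3 the median difference was 0.071 and 25 members had a higher mean. Leaving out both acinar-rich libraries gave 23 members with a higher mean and a median difference of 0.052. Without Vehicle 1 and without AZD7507 2 the median was 0.23 and 0.19. Groups that do not overlap are easier to meet with fewer libraries: 9 members were above without Vehicle 1 (12.3% of all genes), 7 without Vehicle 2 (17.7%), 8 without AZD7507 1 (11.9%) and 9 without AZD7507 2 (14.3%), and 6 were below without Vehicle 2 (17.8%), 4 without AZD7507 1 (11.9%) and 2 without Vehicle 3 (11.2%).

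**Figure D3:**
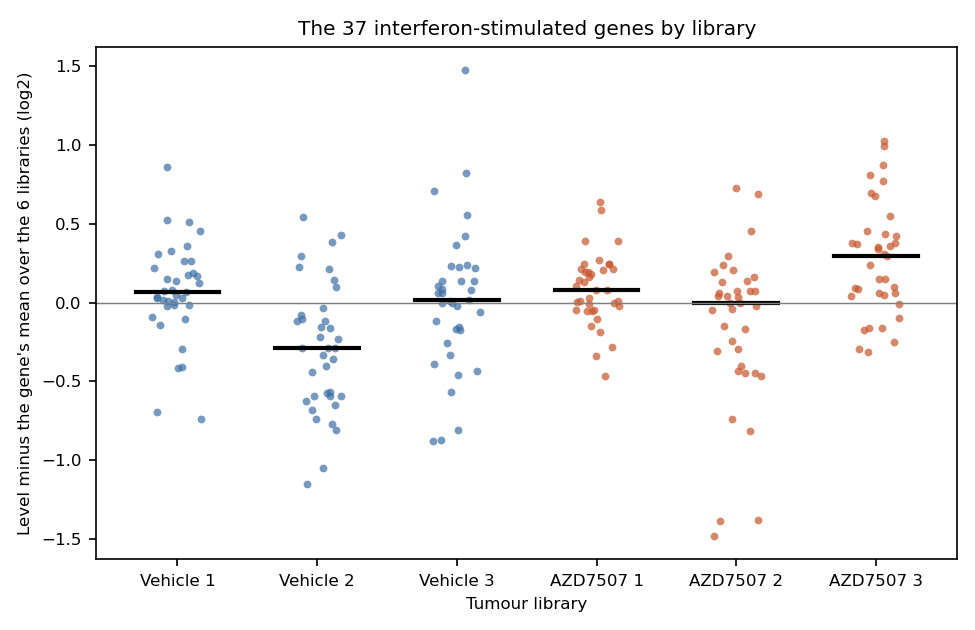
Level of each of the 37 interferon-stimulated genes minus its own mean over the 6 libraries (log2, vertical axis) in each tumour library (horizontal axis). Points are genes, blue for vehicle and orange for AZD7507, and black bars are medians; Vehicle 2 is the lowest library by its median and AZD7507 3 the highest.

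Markers of several cell types also differed between libraries. The 11 epithelial tumour markers had a median difference of 0.26. All AZD7507 libraries were above all vehicle libraries in 2 of them, where 7.34% of all genes were so placed. These were the keratin genes Krt8 (difference 0.39) and Krt18 (difference 0.41), and the groups overlapped for the rest of the list. Like the 37 genes, they had their lowest mean deviation in Vehicle 2 (-0.32, lowest for 7 of 11) and their highest in AZD7507 3 (0.24, highest for 7 of 11). Their summed level was 460 to 722 RPKM with vehicle and 616 to 832 RPKM with AZD7507. Without Vehicle 2, 7 of the 11 had a higher mean and the median difference was 0.060. The 12 macrophage markers summed to 703 RPKM in Vehicle 2, where all 12 were at their highest, and to 88.7 RPKM in AZD7507 3, where 11 of 12 were at their lowest. Vehicle 2 was also one of the acinar-rich libraries. Neutrophil markers, of which 5 of 7 were measured, summed to 15.3 RPKM in Vehicle 2 and 3.74 to 4.09 RPKM in the other vehicle libraries, against 6.11 to 9.77 RPKM with AZD7507. They differed in sign, at 0.91 for S100a8, 0.76 for S100a9, 1.11 for Cxcr2, -0.0070 for Mmp8 and -0.68 for Csf3r, and none was called. Plasmacytoid dendritic cells make much type I interferon in response to virus, and 4 of their 8 markers were measured, at a sum of 23.03 to 33.6 RPKM with vehicle and 22.2 to 29.5 RPKM with AZD7507. The differences of these 4 were -0.36 for Tcf4, 0.091 for Spib, 0.26 for Runx2 and 1.02 for Pacsin1, and none was called. The defining marker Siglech was not analysed here. The part of these cells in the differences was not tested.

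Related interferon lists were read with the same fit. The interferon-inducible GTPases, which attack vacuoles of pathogens and respond mainly to interferon gamma, had a higher mean in 17 of 17 genes and a median difference of 0.65, and all AZD7507 libraries were above all vehicle libraries in 9, where 7.34% of all genes were so placed. None was called, and Vehicle 2 was the lowest library for 16 of the 17. Iigp1 was at 1.08, 0.33 and 0.14 with vehicle and at 1.94, 2.17 and 2.56 with AZD7507, and differed by 1.71 (SE 0.28, limma adjusted p 0.072). Igtp was at 3.00, 1.54 and 2.35 with vehicle and at 3.51, 3.88 and 4.10 with AZD7507, and differed by 1.53 (SE 0.35, limma adjusted p 0.18). With limma array weights, which give noisier libraries less say, Iigp1 passed (difference 1.75, adjusted p 0.039). Without Vehicle 2 the GTPase list had 14 of 17 higher means and a median difference of 0.42.

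Genes of MHC class I presentation, which interferons of both types induce, had a higher mean in 19 of 20 and a median difference of 0.18. No gene was called, among them Psmb8, an immunoproteasome subunit gene, at 0.35 (SE 0.15, limma adjusted p 0.56), and H2-T22 at 0.39 (SE 0.17, limma adjusted p 0.57). Without Vehicle 2 that list had 16 of 20 higher means and a median difference of 0.13. Whether these lists differed from the 37 genes was not tested. The plot of list means by library shows the low value of Vehicle 2 in the 37 genes, the GTPases and MHC class I. By mean deviation, Vehicle 2 was not low in every interferon list. It was at -0.016 in the 41 other interferon-stimulated genes described next, 0.24 in the receptor genes and 0.32 in the induction genes. The median deviation of the induction genes in Vehicle 2 was 0.0585. Of the 41 genes, 13 were lowest in Vehicle 2 and 11 highest, where 26.3% and 22.5% of all genes were.

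**Figure D4:**
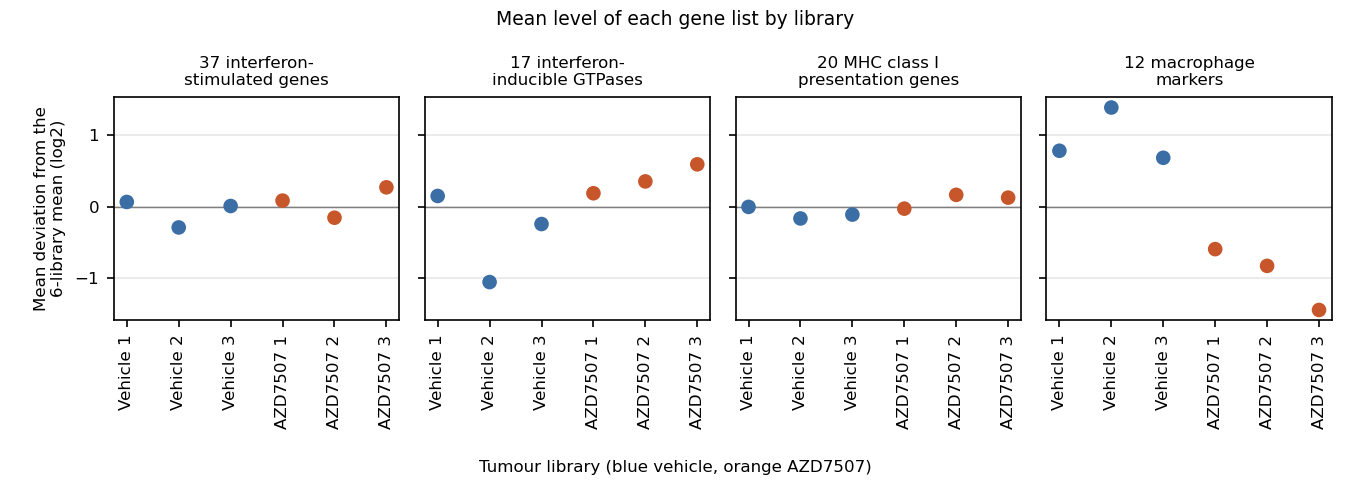
Mean deviation from the 6-library mean (log2, vertical axis) of 4 gene lists in each tumour library (horizontal axis), with vehicle in blue and AZD7507 in orange. The 37 interferon-stimulated genes range from -0.29 in Vehicle 2 to 0.27 in AZD7507 3, and the 12 macrophage markers from 1.39 to -1.44 in the same libraries.

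A longer list held type I interferon-stimulated genes outside the 37. Of 41 measured, 17 had a higher mean with AZD7507 and the median difference was -0.072, where 54.5% of all genes had a higher mean. None was called higher and 2 were called lower, where 0.0184% and 0.337% of all genes were. All AZD7507 libraries were above all vehicle libraries in 0 of the 41 and below in 7, where 7.34% and 8.02% of all genes were so placed. Ifi207, a member of the interferon-inducible p200 family, fell from 1.92 ± 0.10 to 0.86 ± 0.14 (difference -1.06, SE 0.15, limma adjusted p 0.048). Slfn8, a Schlafen family gene, fell from 0.97 ± 0.17 to -0.40 ± 0.09 (difference -1.36, SE 0.20, limma adjusted p 0.049). Both calls were lost without any 1 library (limma adjusted p 0.090 to 0.23), and that of Slfn8 also with quantile normalization (0.0503) and at a minimum mean log2 RPKM of 0 (0.053). Without Vehicle 1 the list had 23 of 41 higher means and a median of 0.036, the opposite sign.

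In the list of the interferon gamma pathway 3 of 6 measured genes had a higher mean, where 54.5% of all genes had one. Of the 6, 1 was called lower, where 0.337% of all genes were. Irf8, a transcription factor gene of macrophages and dendritic cells, fell from 2.40 ± 0.22 to 0.70 ± 0.35 (difference -1.71, SE 0.21, limma adjusted p 0.035), a call lost without any 1 library (limma adjusted p 0.078 to 0.15) and with a constant prior (0.056). Ifngr1, a chain of the interferon gamma receptor, was at 4.45 ± 0.19 and 3.90 ± 0.22 (difference -0.55, SE 0.15, limma adjusted p 0.29). The gene of interferon gamma itself was not analysed here.

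**Figure D5:**
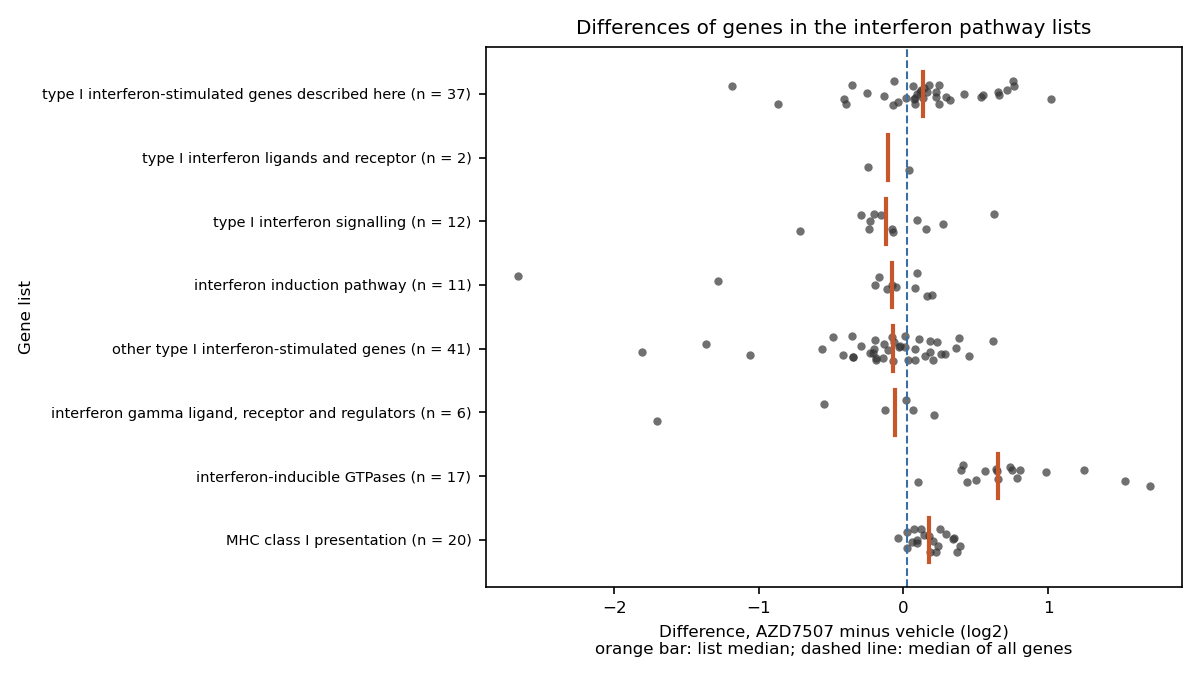
Difference between AZD7507 and vehicle means (log2, horizontal axis) for each measured gene of the 8 interferon pathway lists (vertical axis), with list medians as orange bars and the median of all genes, 0.025, as a dashed line. The 37 interferon-stimulated genes spread from -1.19 for Mx1 to 1.02 for Cmpk2, and the 17 GTPase genes all lie above 0.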

How the data were processed

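The type I interferon-stimulated genes were read in 6 tumour libraries, 3 with AZD7507 and 3 with vehicle. The authors deposited log2 RPKM normalized with cqn, per the name of the table; BWA 0.7.15-r1140, HTSeq and the builds mm10 and GRCm38 are named in the submitters' processing notes. The sources used here do not give annotation release, strand setting or gene filter. The authors' log2 values have an upper quartile of 3.52 in each library, which hides any change in total RNA, and depth is unknown. Symbols and coordinates came from GENCODE M21 and were matched for 16306 of 16344 identifiers. Replicates were numbered in record order.

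All genes were fitted with limma 3.58.1 in R 4.3.3 (trended, robust prior, no pseudocount, no filter, 2-sided), and p-values were adjusted over the whole table at a threshold of 0.05. The fit was tested on simulated data. The members and lists were chosen with earlier results of these data known. Members given with every library were Isg15 and, in each role group, the 2 with the smallest unadjusted p; in each pathway list the 2 with the smallest were named, except 1 gene that is not reported here. Rsad2, Mx1, Adar and Ifit3b were added after their values were seen.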

Additional observations from a re-analysis of the deposited data

How the results depend on the processing

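Across 14 alternatives no member was called. The smallest limma adjusted p of a member was 0.25 in the main fit. In the alternatives it ran from 0.069 with array weights to 0.82 without AZD7507 3, and it was 0.16 with a constant prior. The number of members with a higher AZD7507 mean ran from 19 to 28 and their median difference from 0.024 to 0.23 when 1 library was left out. The median difference was 0.056 with array weights, 0.11 with a pseudocount of 1 and 0.12 at a minimum mean log2 RPKM of 0. Over all genes the calls were 1 higher with a constant prior, 14 higher and 143 lower with array weights, and 0 to 1 higher and 0 to 14 lower with libraries left out. Members above in every library numbered 2 at the minimum of 0, which kept 27 members, where 7.55% of all genes were so placed. Those below numbered 2 with quantile normalization, where 8% of all genes were. With 1 library left out those above ran from 5 to 9 and those below from 1 to 6 (10.1% to 17.7% and 10.4% to 17.8% of all genes). Without both acinar-rich libraries they were 11 and 7, where 26.6% and 23.6% of all genes were so placed.

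The sign changed in at least 1 alternative for 15 members, and 22 kept their sign in every alternative. With array weights the sign changed for Oasl2 (-0.12), Samd9l (-0.0032), Dtx3l (-0.016), Xaf1 (-0.059) and Lgals3bp (0.18). With libraries left out the differences ran from -0.073 to 0.23 for Ifih1, -0.0053 to 0.21 for Ddx58, -0.12 to 0.11 for Stat2, -0.055 to 0.27 for Irf9, -0.11 to 0.41 for Usp18, -0.10 to 0.46 for Herc6, -1.02 to 0.24 for Oas3, -0.21 to 0.28 for Oasl2, -0.15 to 0.65 for Rsad2 and -0.058 to 0.097 for Samd9l. They ran from -0.020 to 0.23 for Parp12, -0.071 to 0.18 for Dtx3l, -0.12 to 0.00040 for Ifi35, -0.16 to 0.36 for Xaf1, -0.30 to 0.11 for Lgals3bp and, outside the set, -0.051 to 0.19 for Ifnar2. The cause of these changes was not tested. No paired analysis was possible because the labels link no AZD7507 tumour to a vehicle tumour. Since depth is unknown, no counting error could be given for members at low levels.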
